A study of Mus musculus with 12 samples.

Results

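Small nucleolar RNAs (snoRNAs), small Cajal body RNAs (scaRNAs) and the small nucleolar RNA host genes (Snhg genes) were compared between primary mouse oligodendrocytes (OLs) with and without knockdown of Egr2. Members were taken by symbol alone: Snord, Snora, Scarna or Snhg followed by a number. The rule gave 174 of the 56860 gene symbols in the counts table, made up of 108 box C/D snoRNAs, 40 box H/ACA snoRNAs, 9 scaRNAs and 17 Snhg genes. It also admits Snhg7os, an antisense gene by annotation, among the Snhg genes, and the pseudogenes Snord3b-ps1 and Snord3b-ps2 among the box C/D snoRNAs. RNA-seq counts were available for 12 libraries, 6 from OLs given an siRNA against Egr2 (siEgr2 group) and 6 from OLs given a scrambled siRNA (siNC group). All cells came from C57BL/6J mice with no other allele, were differentiated in culture and were collected after 48 h. By the study's methods the cells were bound to O4 beads from the cortex of newborn mice (P6–P7), grown with PDGF-AA and then matured with insulin, triiodothyronine and ciliary neurotrophic factor, whereas the labels name the medial prefrontal cortex as the source. The knockdown reagent is called an siRNA in one place of the methods and an interference plasmid in another. Nothing states whether the 6 libraries of a group came from separate cultures, so p-values measure the spread between libraries, which may be technical.

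Box C/D snoRNAs guide the methyltransferase fibrillarin (Fbl) to ribosomal RNA, and box H/ACA snoRNAs guide the pseudouridine synthase dyskerin (Dkc1). ScaRNAs carry the same boxes and guide the modification of spliceosomal RNAs in Cajal bodies. Most of them in mammals are cut out of the introns of a host gene after splicing, while a few, such as U3, U8 and U13, have promoters of their own. Many hosts are ribosomal protein and translation factor genes or Snhg genes, whose spliced RNA mostly codes for no protein. Others, such as Hspa8 and Kansl2, code for further proteins. Several hosts, Gas5 and Snhg1 among them, begin with the terminal oligopyrimidine tract of ribosomal protein mRNAs and yield a short-lived spliced RNA. Mature snoRNAs have no poly(A) tail.

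The box sequences that define the classes are shown for the member with the largest fold change among those tested (Snord32a), a tested box H/ACA snoRNA with counts in every library (Snora31), the snoRNA inside Snhg8 (Snora24), and a pair that held exactly 1 count in all 12 libraries (Snord21 and Snora3). Snora24, Snord21 and Snora3 were chosen after their values were seen. Sequences run 5′ to 3′ and are the GENCODE M21 transcripts on GRCm38, the assembly behind the build mm10 named in the submitters' processing notes. Capitals mark the C box TGATGA and the D box CTGA in box C/D snoRNAs, and the H box, searched as ANANNA, and the terminal ACA in box H/ACA snoRNAs.
Snord32a: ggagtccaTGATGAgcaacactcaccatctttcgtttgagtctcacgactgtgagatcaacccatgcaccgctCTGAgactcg
Snora31: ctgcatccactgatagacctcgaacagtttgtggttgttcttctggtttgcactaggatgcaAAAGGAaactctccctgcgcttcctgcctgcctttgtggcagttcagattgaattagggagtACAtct
Snora24: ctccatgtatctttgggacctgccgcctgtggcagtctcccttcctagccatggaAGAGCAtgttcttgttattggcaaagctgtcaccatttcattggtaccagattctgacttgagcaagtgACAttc
Snord21: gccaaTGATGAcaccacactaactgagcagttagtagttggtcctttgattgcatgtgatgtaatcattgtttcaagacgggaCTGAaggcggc
Snora3: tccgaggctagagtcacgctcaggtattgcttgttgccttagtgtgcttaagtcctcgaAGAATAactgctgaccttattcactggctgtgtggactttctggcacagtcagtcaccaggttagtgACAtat

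Snord32a is 83 bases long and lies at chr7:45127382-45127464 on the minus strand, inside an intron of Rpl13a. The 130 bases of Snora31 at chr14:75847905-75848034, plus strand, fall within an intron of Tpt1. Snora24, 130 bases at chr3:123507937-123508066 on the minus strand, overlaps an exon of Snhg8. Snord21 covers 94 bases at chr5:107904555-107904648 on the plus strand and overlaps an exon of Rpl5. Snora3, 132 bases at chr7:109520120-109520251 on the plus strand, overlaps an exon of Rpl27a.

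The symbols separated the classes as their boxes do. On the transcript strand, TGATGA began within the first 20 bases of 70.4% of the 98 box C/D sequences and of 0 of the 40 box H/ACA sequences. CTGA stood within the last 20 bases of 98% of box C/D and 10% of box H/ACA sequences. ACA stood within the last 8 bases of 95% of box H/ACA and 7.14% of box C/D sequences, and the loose pattern ANANNA in the middle segment (bases split into 3 equal parts) of 92.5% and 54.1%. ScaRNAs mixed the features, with both C and D boxes in 44.4% of 9 and a terminal ACA in 44.4%. A match to these letters is a description of the sequence and not evidence of a working box.

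The libraries differed in depth with the group. Totals were 28682946 to 39383014 counts in siNC and 8034251 to 16683677 in siEgr2 libraries, and the RNA encoded by Rn18s-rs5 (18S ribosomal RNA) took 0.142% to 1.05% of the counts in siNC against 10.5% to 16.5% in siEgr2. Egr2 itself measured 3.89 to 7.06 CPM (counts relative to the scaled total of the library) in siNC and 2.22 to 4.86 in siEgr2, with a log2 fold change of -0.51 (SE 0.21, adjusted p = 0.0981), so that the groups overlapped. Here and below CPM are on the scale of edgeR's TMM factors, fold changes are siEgr2 over siNC, and adjusted p-values come from edgeR's quasi-likelihood test over all 16600 genes tested. The 10 oligodendrocyte markers were all present, at summed levels of 9664 to 10656 CPM in siNC and 9675 to 10017 in siEgr2, and 0 of them were called. The 8 astrocyte markers summed to 8119 to 8814 CPM in siNC and 5206 to 5870 in siEgr2 (5 called lower), and both precursor markers, Pdgfra and Cspg4, were called higher. Of the 6 neuron markers, the 5 tested had log2 fold changes on both sides of 0 (median 0.31). Their sum of 129 to 144 CPM in siNC and 112 to 125 in siEgr2 was mostly Tubb3 (-0.27, adjusted p = 8.12e-04), while Syt1 was higher (0.31, adjusted p = 0.0266), and 0 were called. Fibroblast and pericyte markers summed to 584 to 999 CPM against 592 to 736 (1 called lower), endothelial markers to 3.38 to 5.41 against 1.68 to 6.80 (1 called lower) and microglial markers to 2.99 to 5.80 against 1.95 to 5.63. The part of depth, 18S RNA and cell makeup in the results below was not tested, and fewer cells of a type cannot be told apart from less RNA per cell in such bulk samples.

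Most snoRNAs were hardly counted. Of the 174 members, 155 had a count in some library and 25 passed the filter on low counts (at least 0.441 CPM, before TMM scaling, in at least 6 libraries): 1 of 108 box C/D snoRNAs, 9 of 40 box H/ACA snoRNAs, 0 of 9 scaRNAs and 15 of 17 Snhg genes. The 157 snoRNAs and scaRNAs together received 506 to 636 counts in an siNC library and 166 to 353 in an siEgr2 library. The 17 Snhg genes received 4752 to 6586 and 1686 to 3536. Of the 10 small RNAs that passed the filter, the 9 with a single annotated entry (all but Snora43) had a median length of 131 bases and the shortest of them, Snord32a, 83, whereas box C/D snoRNAs had a median length of 85 bases (64 to 238), box H/ACA snoRNAs 132 (121 to 205) and scaRNAs 140 (70 to 414).

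No member was called at an adjusted p under 0.05 with an absolute log2 fold change over 0.5. In edgeR's test 0 of 25 were called, beside 7.72% of all genes tested (2.63% higher, 5.08% lower). At an unadjusted p under 0.05 stood 6 of the 25 (24%), against 32.0% of all genes. DESeq2 called 1 of the 25 higher (Snhg14), beside 3.36% of all genes called higher and 8.90% called in either direction. Limma-voom called 2 higher (Snhg14 and Snord32a), beside 2.69% and 7.95%. Snord32a had passed the filter through siEgr2 libraries, the group in which it was higher, so its call is a description only. At an adjusted p under 0.05 and any fold change, 3 members were higher in siEgr2 (12%), all of them Snhg genes, against 8.57% of all genes. The 2 groups of libraries did not overlap for 1 member, Snhg14, against 11.2% of all genes. The median log2 fold change of the 25 was 0.16, and of all genes tested 0.00.

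**Figure D1:**
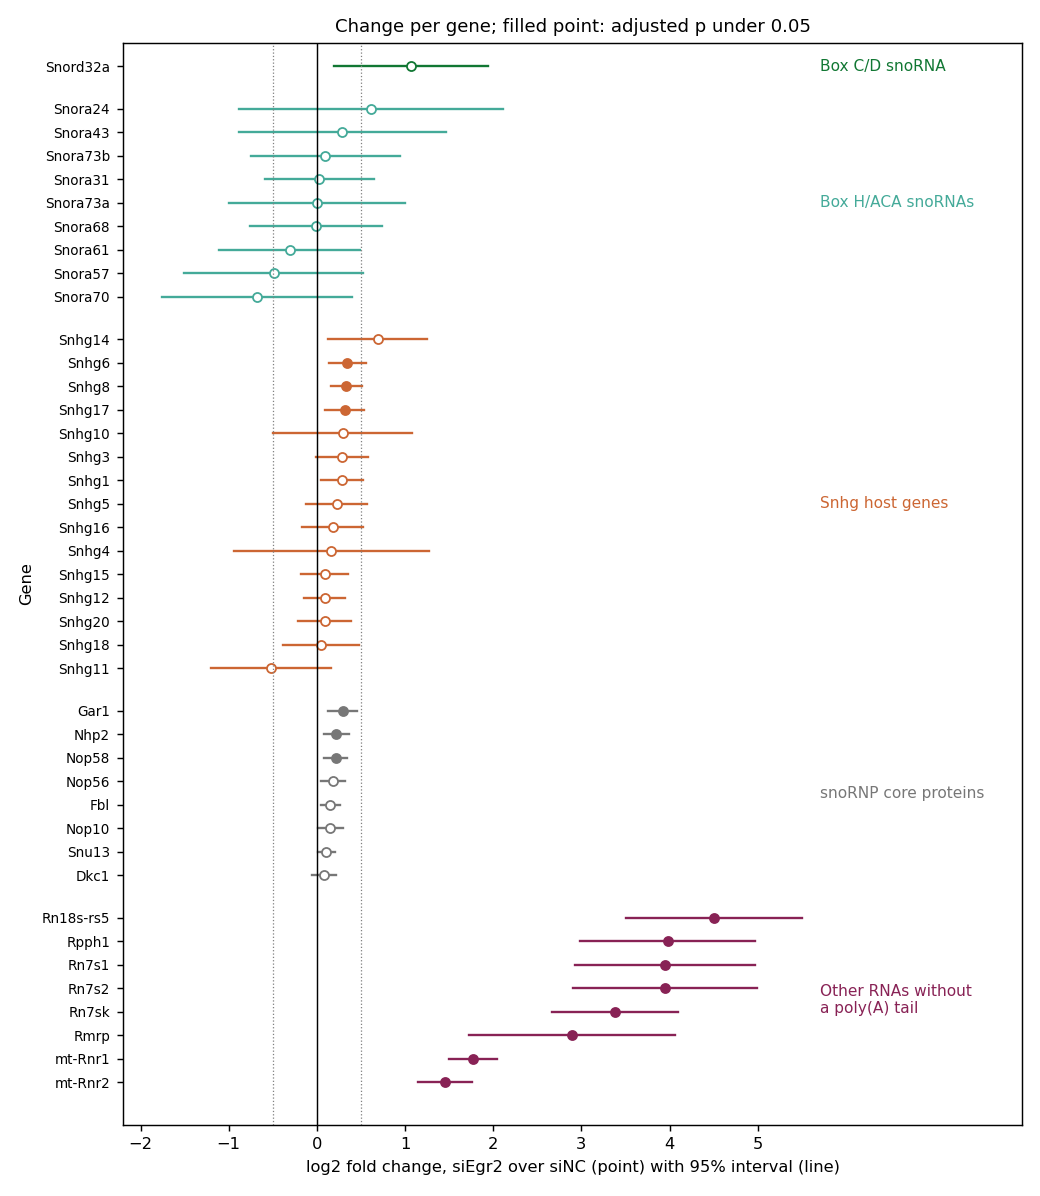
Log2 fold change of siEgr2 over siNC (horizontal axis) with its 95% interval for the 25 members tested, the 8 core proteins of snoRNA particles and 8 other RNAs without a poly(A) tail. Filled points mark an adjusted p under 0.05 and dotted lines a log2 fold change of 0.5 in either direction; 3 of 15 Snhg genes and 0 of 10 snoRNAs are filled, while all 8 RNAs of the lowest block lie at 1.45 or above.

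Among Snhg genes, Snhg8, Snhg6 and Snhg17 were higher in the siEgr2 group at an adjusted p under 0.05, by less than the fold set for a call. Snhg8, the host of Snora24, measured 15.6 to 18.5 CPM (median 16.9) in siNC and 18.2 to 24.3 (median 21.6) in siEgr2. Only the lowest siEgr2 library lay within the siNC range. Its log2 fold change was 0.33 (SE 0.083, adjusted p = 0.00903). Snhg6, the host of Snord87, measured 19.6 to 24.9 CPM (median 22.7) and 24.1 to 36.6 (median 27.0), again with 1 siEgr2 library inside the siNC range, and its log2 fold change was 0.35 (SE 0.097, adjusted p = 0.0187). Without siEgr2 replicate 2, the library at 36.6 CPM, the value for Snhg6 was 0.25. Mcmdc2, whose exons overlap Snhg6 on the other strand, had 2 to 35 counts in a library. Snhg17 measured 14.2 to 17.3 CPM (median 15.1) and 15.6 to 22.5 (median 19.2), with 2 siEgr2 libraries inside the siNC range, and changed by 0.32 (SE 0.10, adjusted p = 0.0432). When each library was left out in turn, Snhg8 and Snhg6 passed an adjusted p of 0.05 in 12 of 12 fits and Snhg17 in 4 of 12. Snhg17 also did not pass with limma-voom or without the filter. With all libraries thinned to the smallest total, Snhg8 alone of the 3 passed. With library size as the only scaling none of the 3 did, at log2 fold changes of 0.15, 0.16 and 0.13 in the order given, while the median of all genes moved to -0.18.

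Snhg14, the long antisense RNA that runs from the Prader-Willi region across Ube3a and carries the Snord116 cluster, had the largest fold change of the Snhg genes. In siNC it measured 15.5, 19.99, 20.8, 38.9, 40.7 and 43.0 CPM and in siEgr2 43.8 to 54.2 (median 47.6). Every siEgr2 library exceeded every siNC library, and the siNC libraries fell into a lower and a higher set of 3 each. The log2 fold change was 0.69 (95% interval 0.13 to 1.24, adjusted p = 0.0834). Left out in turn, 1 of the 12 libraries gave a call (siNC replicate 5, at 0.82, adjusted p = 0.0453), and the value fell to 0.56 without siNC replicate 3. It was called by DESeq2 (0.69, adjusted p = 0.0360) and limma-voom (0.81, adjusted p = 0.0315). Whether the counting used strand is not given in the sources used here, so reads of Snhg14 cannot be told apart from those of Ube3a where their exons overlap. Ube3a, a ubiquitin ligase, measured 63.4 CPM in siNC and 61.1 in siEgr2 on average, a log2 fold change of -0.05 (SE 0.085, adjusted p = 0.715). The 17 Snord116 entries of the table, whose RNAs come from introns of Snhg14, held 13 counts in all 12 libraries together, and none exceeded 1 count in a library.

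The remaining 11 Snhg genes did not pass the threshold. Snhg1, the host of Snord22 and of further snoRNAs, measured 15.8 to 19.9 CPM (median 17.1) in siNC and 15.1 to 25.5 (median 21.9) in siEgr2, with 2 of the siEgr2 libraries within or below the siNC range and a log2 fold change of 0.28 (SE 0.11, adjusted p = 0.0873). Without siEgr2 replicate 5, the library at 15.1 CPM, it was 0.36 (adjusted p = 0.0127). Snhg5, which holds Snord50a and Snord50b, measured 15.8 to 18.3 CPM (median 16.3) and 10.1 to 25.5 (median 19.6), so that siEgr2 libraries lay on both sides of the siNC range. Its log2 fold change was 0.22 (SE 0.16, adjusted p = 0.372), and 0.35 (adjusted p = 0.0251) without siEgr2 replicate 4, the library at 10.1 CPM, but 0.12 without siEgr2 replicate 2. It passed an adjusted p of 0.05 in 1 of the 12 fits that left out a library. Snhg3, the host of Snora73a and Snora73b, measured 3.21 to 4.58 CPM (median 4.20) and 4.19 to 5.51 (median 5.33), with a log2 fold change of 0.29 (SE 0.14, adjusted p = 0.175). Snhg3 shares exon sequence with Rcc1, a chromatin-bound exchange factor, which measured 35.0 CPM in siNC and 39.9 in siEgr2 (log2 fold change 0.18, SE 0.061, adjusted p = 0.0437), and reads of the shared part cannot be assigned to either. Snhg11 was the one tested Snhg gene with a negative value, at 1.47 to 3.21 CPM (median 2.16) in siNC and 0.733 to 2.44 (median 1.53) in siEgr2, a log2 fold change of -0.52 (95% interval -1.197 to 0.16, adjusted p = 0.288).

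Snhg20, Snhg12 and Snhg15 lay close together. Snhg20 measured 7.83 to 12.3 CPM (median 10.7) in siNC and 7.46 to 13.2 (median 11.01) in siEgr2. Snhg12, the host of Snora44, Snora61 and Snord99, measured 7.85 to 10.7 CPM (median 9.68) and 8.68 to 11.6 (median 10.1). Snhg15, which holds Snora9, measured 7.59 to 12.2 CPM (median 9.25) and 8.59 to 11.6 (median 10.04). The groups overlapped almost fully in these 3 genes, with log2 fold changes of 0.09 each and 95% intervals from -0.22 to 0.39 at the widest. Snhg16 measured 4.98 to 7.15 CPM (median 6.65) and 5.53 to 9.86 (median 6.81). Snhg18 measured 1.54 to 2.63 CPM (median 1.93) and 1.79 to 2.29 (median 2.02). Snhg10, the host of Scarna13, measured 0.580 to 2.18 CPM (median 1.59) and 0.803 to 3.02 (median 1.98). All of these overlapped as well. Snhg4 varied widely between siEgr2 libraries, from 0.822 to 12.04 CPM (median 3.78), around an siNC range of 2.499 to 6.76 (median 3.27), and its log2 fold change of 0.16 turned to -0.33 without siEgr2 replicate 5, the library at 12.04 CPM. Snhg9 and Snhg7os held 9 and 17 counts in total and were not tested.

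**Figure D2:**
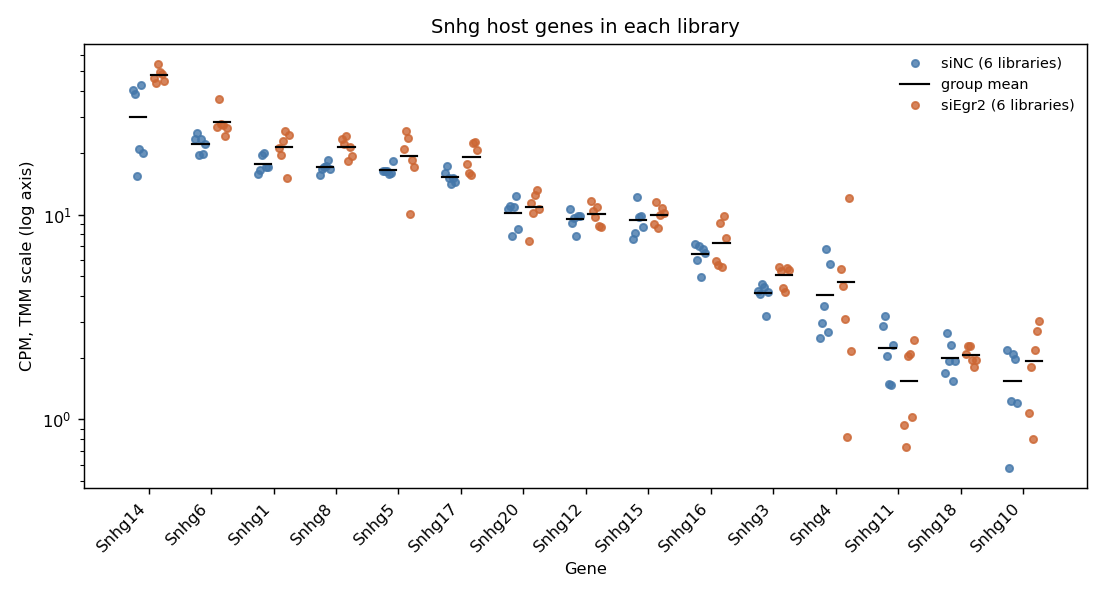
Level of the 15 tested Snhg genes in each library (CPM on the TMM scale, log axis), siNC in blue and siEgr2 in orange, with lines at the group means and genes ordered by their siNC mean. Snhg14 is the one gene whose groups do not overlap, and its siNC libraries lie in sets near 15.5 to 20.8 and 38.9 to 43.0 CPM.

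By log2 fold change 14 of the 15 tested Snhg genes lay above 0 with TMM, RLE and upper-quartile scaling, whereas 9 of 15 did with library size as the only scaling, where most genes of the table were lower. Their median was 0.22 with TMM and 0.05 with library size alone, which is 0.22 above the median of all genes in either case. Summed over all 17, the level was 153 to 179 CPM in siNC and 204 to 218 in siEgr2. Snhg14 contributes the most to that sum. The groups of summed values did not overlap; no test was made on the sum. Per kilobase of annotated exon, Snhg8 and Snhg6 had the highest levels in siNC, 19.9 and 19.4 CPM per kb, followed by Snhg5 at 9.55, while Snhg14, spread over a far longer model, had 1.14. Snhg16 and Snhg4 had no length in the annotation used.

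Among 6 tested host genes outside the Snhg symbols, 4 were higher in siEgr2 at an adjusted p under 0.05 by less than the fold set for a call, beside 8.57% of all genes tested. Gas5, a host of box C/D snoRNAs only, measured 72.3 to 87.4 CPM (median 78.5) in siNC and 93.0 to 104.5 (median 97.5) in siEgr2 without overlap, a log2 fold change of 0.29 (SE 0.051, adjusted p = 6.75e-04). Rcc1 and Rpl13a were also among the 4, 0 of the 6 were called, and the median log2 fold change was 0.15. Rpl10 and Tpt1 had log2 fold changes of 0.09 (adjusted p = 0.218) and 0.04 (adjusted p = 0.5004), and Gm45713 was not tested. With library size alone 3 of the 6 lay above 0.

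The only box C/D snoRNA that passed the filter was Snord32a, through 5 siEgr2 libraries and 1 siNC library over the 0.441 CPM, that is through the group in which it was higher. Its values are therefore a description of 1 snoRNA and say nothing of the class. Snord16a had more counts (118 against 109) but reached that level in 5 libraries, and with a filter of 10 counts in 6 libraries it took the place of Snord32a, with a log2 fold change of 1.14 and an unadjusted p above 0.05. Snord55, with 106 counts, and Snord35a and Snord34, with 101 and 93 counts and the same host as Snord32a, did not pass either and had log2 fold changes of -0.33, -0.10 and 0.64 in the fit without a filter (chosen after their values were seen). Its counts were 6, 12, 6, 17, 7 and 13 in siNC replicates 1 to 6 and 15, 6, 10, 8, 3 and 6 in siEgr2, which gave 0.174 to 0.498 CPM (median 0.270) and 0.384 to 1.008 (median 0.592). The groups overlapped, as 1 siNC library reached the level of the siEgr2 libraries at 0.488 and 0.384. The log2 fold change was 1.07 (95% interval 0.19 to 1.94, adjusted p = 0.0828), and limma-voom called it at 1.15 (adjusted p = 0.0439). Without siEgr2 replicate 1, the library at 1.008 CPM, it was 0.86. Its host Rpl13a, counted at 459 to 488 CPM in siNC and 485 to 546 in siEgr2, changed by 0.11 (SE 0.032, adjusted p = 0.0270).

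More box H/ACA than box C/D snoRNAs passed the filter, and none of the 9 tested differed past any threshold. Snora68 had 19 to 40 counts in siNC and 3 to 29 in siEgr2, that is 0.552 to 1.21 CPM (median 0.987) and 0.384 to 1.79 (median 0.801), with a log2 fold change of -0.01 (95% interval -0.76 to 0.74). Snora31 had 18 to 36 and 6 to 15 counts, 0.589 to 1.05 CPM (median 0.883) and 0.585 to 1.06 (median 0.906), with a log2 fold change of 0.03 (95% interval -0.59 to 0.64). In Snora31 the groups overlapped over nearly their whole range, and in Snora68 the siEgr2 libraries lay on both sides of the siNC range. Snora73b and Snora73a, 205 bases each and near-identical neighbours in the Snhg3 and Rcc1 gene, measured 0.258 to 1.008 against 0.326 to 1.196 CPM and 0.327 to 0.958 against 0.128 to 1.27 CPM, with log2 fold changes of 0.10 and 0.00. Reads that fit both copies could have been counted for either. Snora57 measured 0.451 to 0.908 CPM in siNC and 0.134 to 1.17 in siEgr2, a log2 fold change of -0.49 (95% interval -1.50 to 0.52). The value was -0.97 without siEgr2 replicate 6 and -0.28 without siEgr2 replicate 1. Snora57 lay over the filter's level in 6 siNC and 2 siEgr2 libraries, and so passed through the group in which it was higher.

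Snora70, which overlaps an exon of Rpl10, had the lowest log2 fold change of the 9 tested box H/ACA snoRNAs. Its counts were 19, 33, 28, 20, 12 and 36 in siNC and 1, 1, 8, 7, 6 and 9 in siEgr2, or 0.393 to 1.008 CPM (median 0.724) and 0.0672 to 0.877 (median 0.509). The log2 fold change was -0.68 (95% interval -1.76 to 0.39, adjusted p = 0.388). In siEgr2, replicates 1 and 2, each with a single count, lay apart from the other 4. Counts of exactly 1 that did not follow depth were common in snoRNAs that overlap a host exon, as described below. Leaving out single libraries moved the log2 fold change of Snora70 between -0.96 and -0.43. The remaining Snora61, Snora24 and Snora43 had log2 fold changes of -0.31, 0.61 and 0.29 with intervals that held 0. Over the 9 the median was 0.00, with 5 above and 4 below 0 under TMM scaling. The intervals reached from -1.76 to 2.11, so changes of a size that would have been called remain within what these counts allow.

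**Figure D3:**
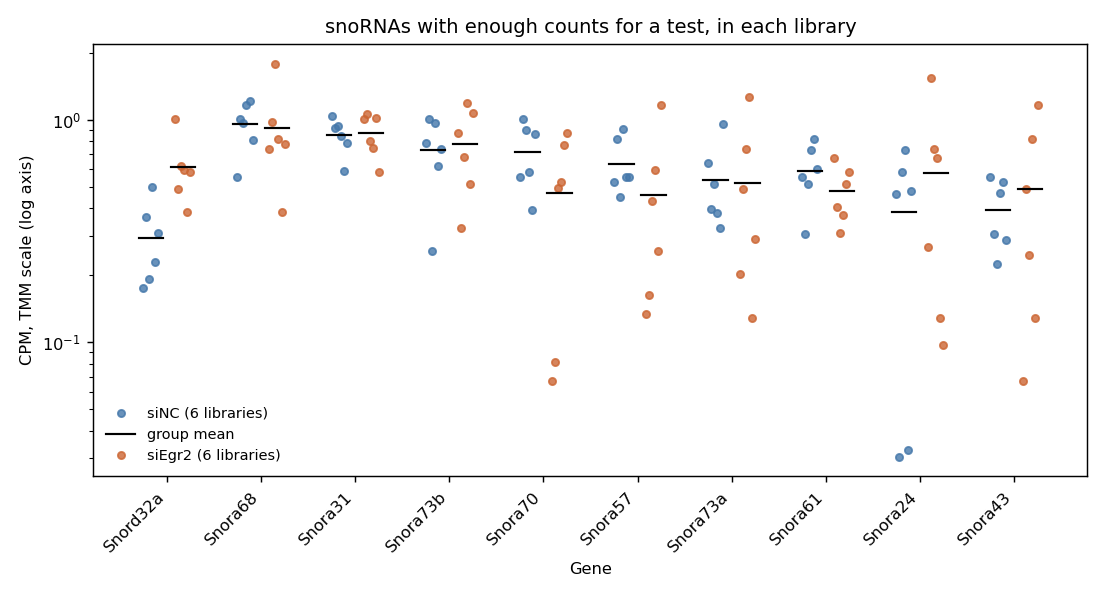
Level of the 10 tested snoRNAs in each library (CPM on the TMM scale, log axis), siNC in blue and siEgr2 in orange, with lines at the group means; Snord32a is box C/D and the others are box H/ACA. The groups overlap in all 10, and Snora24, Snora43, Snora70 and Snora73a include libraries with a single count.

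Values of snoRNAs and their hosts are set side by side here. In a snoRNA that overlaps an annotated exon of its host, reads of the pair cannot be told apart. Of the pairs below, this holds for Snora24, Snora61 and Snora70, and for Snora73a with Snhg3. Snora24 had a log2 fold change of 0.61 (95% interval -0.89 to 2.11, adjusted p = 0.603), which was 0.062 without siEgr2 replicate 2, and its host Snhg8 one of 0.33. For Snora61 and Snhg12 the log2 fold changes were -0.31 and 0.09, for Snora70 and Rpl10 -0.68 and 0.09, and for Snora31 and Tpt1 0.03 and 0.04. Snora73a and Snora73b, at 0.00 and 0.10, stood beside 0.29 for Snhg3 and 0.18 for Rcc1. The intervals of these 6 snoRNAs held the values of the hosts named. That of Snord32a, which passed the filter through siEgr2 libraries, ran from 0.19 to 1.94 and did not hold the 0.11 of Rpl13a. The Snhg hosts had far more counts than the snoRNAs annotated in them. Snhg1 had 5235 counts over all libraries and Snord22 13, and Snhg6 had 6675 and Snord87 53. Snhg5 had 4859, while Snord50a and Snord50b together had 61. Snord22, Snord50a and Snord50b overlap exons of their hosts, so their counts do not measure the released RNA. Snord22 held exactly 1 in 11 of the 12 libraries and Snord50b in 10. Hosts are also longer, with 2969 exonic bases in Snhg1 and 126 in Snord22.

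No scaRNA passed the filter on low counts. All 9 had a count in some library, and their summed counts were 4 to 27 in siNC and 7 to 22 in siEgr2, or 0.122 to 0.790 CPM and 0.895 to 1.48 CPM. Scarna6 had the most, with 48 counts in total, and reached 8 in siEgr2 replicate 1. Scarna2, which guides modification of U2 and is processed from its own transcript rather than an intron, had 39. Scarna3b had 1 count in each of 3 siEgr2 libraries and none in siNC. A count of 0 allows up to 3 counts, which is 0.0718 to 0.0982 CPM in siNC and 0.185 to 0.384 CPM in siEgr2, so that absence in the shallower siEgr2 libraries bounds the level less tightly. These floors cover counting error only.

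Of the 19 members with no count in any library, 18 were box C/D snoRNAs and 1, Snora35, was box H/ACA. They included Snord118 (U8), Snord13 (U13) and the U3 genes Snord3b1 to Snord3b4, which are transcribed from promoters of their own and are abundant in nucleoli, and 8 of the 17 Snord116 entries. Snord3a, a further U3 gene, had 5 counts in 2 siNC libraries, and the U3 pseudogene Snord3b-ps2 had 1 count in siNC and 8 counts in 3 siEgr2 libraries. U3 genes are near-identical copies, and how reads that fit several of them were treated is not given in the sources used here.

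Summed over a class, box C/D snoRNAs measured 5.699 to 8.28 CPM in siNC and 10.6 to 12.4 in siEgr2, box H/ACA snoRNAs 8.96 to 10.1 and 8.32 to 11.7. The box C/D sums did not overlap and those of box H/ACA did. The scaRNA sums given above did not overlap either, from 4 to 27 counts in siNC and 7 to 22 in siEgr2. Many box C/D and box H/ACA snoRNAs held exactly 1 count whatever the depth of the library, and 1 count is a higher CPM in a smaller library. Of the 157 snoRNAs and scaRNAs, 18 held 1 in all 12 libraries (12 box C/D and 6 box H/ACA) and 45 held 1 in 6 or more (32 of 108 box C/D, 12 of 40 box H/ACA and 1 of 9 scaRNAs). Fitted without a filter on low counts, each of these 18 had the same log2 fold change of 1.304 with no difference in its counts. Among the members with a count that overlap an annotated exon of their host, 16 of 61 held 1 in all 12 libraries and 60.5% of all values were 1, with 9.84% at 0. Among those that lie in an intron only, 0 of 64 did, 16.9% of values were 1 and 37.5% were 0. In the 15025 other genes with totals in the same range, 8.15% of values were 1 and 54.3% were 0.

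**Figure D4:**
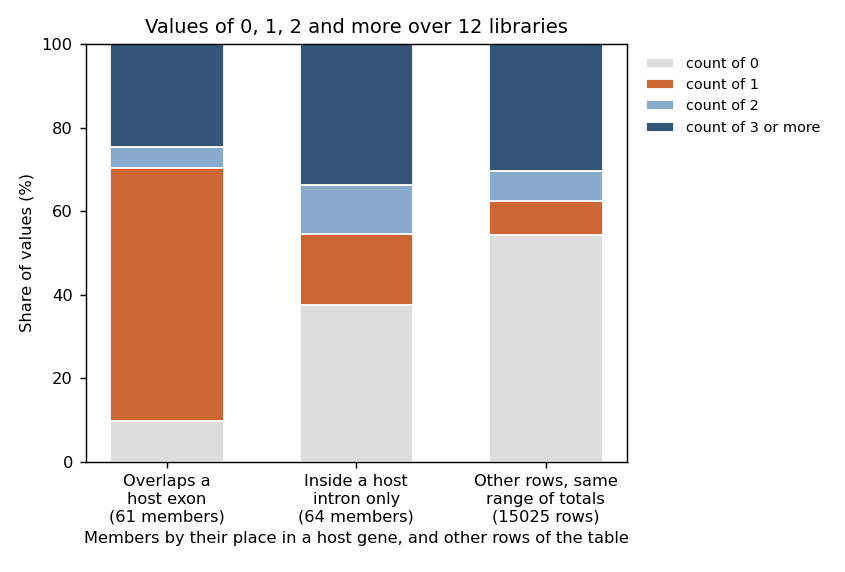
Share of values equal to 0, 1, 2 and 3 or more (vertical axis, percent) over the 12 libraries, for snoRNAs and scaRNAs that overlap an exon of their host, for those inside an intron only, and for other genes with the same range of total counts. Values of 1 make up 60.5% of the first bar, 16.9% of the second and 8.15% of the third.

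The value of 1 also stood beside much larger counts in the same gene. Snord16a, chosen after its values were seen, held 1, 13, 17, 1, 21 and 10 counts in siNC and 22, 16, 5, 10, 1 and 1 in siEgr2. Snora24 held 16, 1, 18, 25, 1 and 20 in siNC and 4, 19, 12, 9, 1 and 1 in siEgr2. Neither the labels nor the study's methods name a step that would give such values, and its origin was not tested. With the 32 box C/D snoRNAs that held 1 in 6 or more libraries left out, the class summed to 4.86 to 6.54 CPM in siNC and 7.21 to 9.05 in siEgr2, and the ratio of group medians was 1.42 instead of 1.56. With every value of 1 set to 0 the sums were 4.77 to 7.27 and 7.31 to 10.2 CPM, and the ratio was 1.32. The box H/ACA ratio was 1.05 over all members and 1.001 with values of 1 set to 0. The scaRNA ratio, from few counts, was 1.89 over all members and 1.52 with values of 1 set to 0, where the sums overlapped. Both alternatives were chosen after the values were seen. No test was made on these sums. Fitted without a filter, 3 of 90 box C/D snoRNAs with a count, 0 of 39 box H/ACA snoRNAs and 1 of 9 scaRNAs had an unadjusted p under 0.05, beside 26.2% of the 30142 genes of that edgeR fit. At an adjusted p under 0.05 stood 0 of these snoRNAs and scaRNAs, beside 11.7% of the genes.

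**Figure D5:**
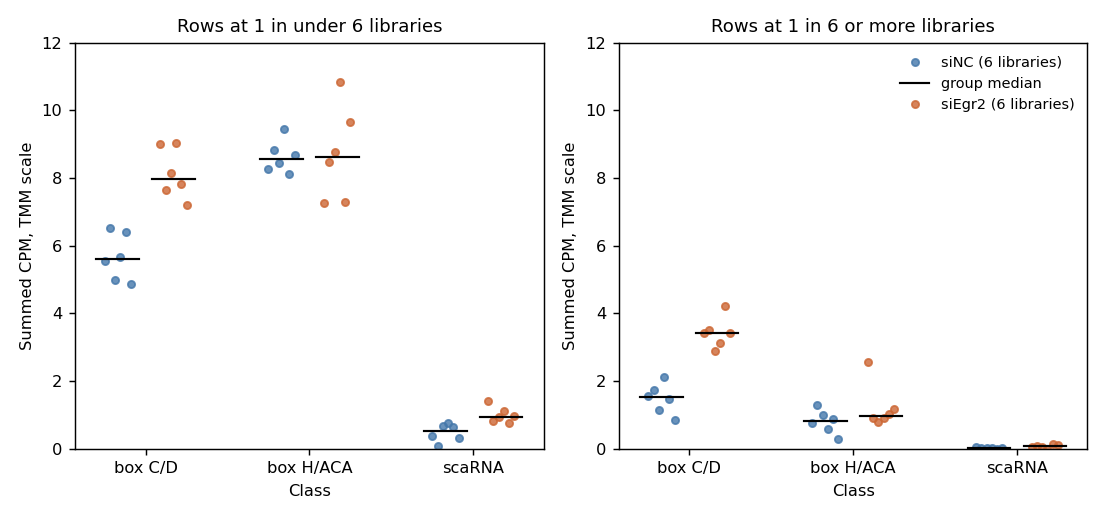
Summed level of each class in each library (CPM on the TMM scale), siNC in blue and siEgr2 in orange with lines at the group medians, split into members at 1 count in under 6 libraries (left) and in 6 or more (right). In the left panel box C/D sums are 4.86 to 6.54 CPM in siNC and 7.21 to 9.05 in siEgr2, while box H/ACA sums overlap.

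Of the genes for proteins of snoRNA particles, 4 of 22 were higher in siEgr2 at an adjusted p under 0.05, each by less than the fold set for a call, beside 8.57% of all genes tested. Of the core of box C/D particles, Nop58 measured 64.3 to 79.2 CPM in siNC and 78.0 to 88.7 in siEgr2, a log2 fold change of 0.21 (SE 0.061, adjusted p = 0.0201). The groups overlapped between 78.0 and 79.2 CPM. Fbl, the methyltransferase, measured 81.7 to 89.5 and 87.6 to 102.7 CPM (0.15, SE 0.052, adjusted p = 0.0504), and Nop56 and Snu13 had log2 fold changes of 0.18 and 0.11. Of the box H/ACA core, Gar1 measured 17.7 to 20.2 CPM in siNC and 21 to 27.6 in siEgr2 without overlap, a log2 fold change of 0.29 (SE 0.078, adjusted p = 0.0140). Nhp2 changed by 0.22 (SE 0.066, adjusted p = 0.0275), and Nop10 and Dkc1, the pseudouridine synthase, had log2 fold changes of 0.15 and 0.08. Among 14 assembly and trafficking factors, Ruvbl2, an ATPase of the R2TP assembly complex, was higher (0.22, SE 0.071, adjusted p = 0.0347), and the others ranged from -0.08 (Rpap3) to 0.18 (Shq1). In all, 0 of 22 were called and 4 were higher at an adjusted p under 0.05 (median 0.12), where 18 of 22 lay above 0 with TMM scaling and 4 of 22 with library size alone.

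Other RNAs without a poly(A) tail were listed for comparison, and all 8 that passed the filter were called higher in siEgr2, with log2 fold changes of 1.45 to 4.50 (median 3.67), beside 2.63% of all genes called higher. For Rmrp and Rpph1, 5 siNC libraries and all 6 siEgr2 libraries lay over the filter's level, so that passing it rested on siEgr2 libraries as well. Rmrp, the RNA of the ribosomal RNA processing enzyme RNase MRP, measured 0.0611 to 2.34 CPM in siNC and 2.95 to 10.8 in siEgr2 (log2 fold change 2.89, SE 0.54, adjusted p = 0.00213). Rpph1, the RNA of RNase P, measured 0.0611 to 1.98 and 10.2 to 24.9 CPM (3.98), and Rn7sk, which holds the elongation factor P-TEFb, 0.886 to 4.16 and 20.5 to 44.4 CPM (3.38). Rn7s1 and Rn7s2, near-identical copies of the signal recognition particle RNA, had 3.95 each, Rn18s-rs5 4.50, and mt-Rnr1 and mt-Rnr2, the ribosomal RNAs of mitochondria, 1.77 and 1.45. In every one of the 8 each siEgr2 library exceeded all siNC libraries. The rest of the list was as scarce as the snoRNAs: Rnu1a1 (U1) had 28 counts over all libraries, Rny1 22, Rny3 16, Vaultrc5 8 and Terc 0, and Rnu7 (U7) held exactly 1 in all 12 libraries. Whether these differences share an origin with the 18S share of the libraries was not tested.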

How the data were processed

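Total RNA was extracted by the authors with TRIzol, adapters were ligated to the RNA and 50 bp reads were sequenced on the Illumina platform. The authors deposited raw counts per gene symbol for 12 libraries, 6 siNC and 6 siEgr2. The build in the submitters' notes is mm10. The aligner, the counting program, strand use and any selection or removal of RNA are not given in the sources used here. Totals ran from 8034251 to 39383014 counts. A nameless row without values was left out.

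The tests were run with edgeR 4.0.16 under R 4.3.3, using filterByExpr, TMM factors, a robust quasi-likelihood fit without covariates, and Benjamini-Hochberg adjustment over 16600 genes. Calls needed both an adjusted p below 0.05 and a log2 fold change beyond 0.5 in size, the thresholds of the study. DESeq2 1.42.0, limma 3.58.1 (voom), other scaling factors and filters, thinning, a replicate block and the omission of each library were alternatives. The SE is the fold change over the square root of F, and intervals are 95%.

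Classes follow the symbol. GENCODE M21 gave 1 entry for 159 of the 174 members, 2 entries for 3 and none for 12. A host is an annotated gene on the same strand that contains the snoRNA. Values are given for all tested Snhg genes, for the 6 most abundant tested snoRNAs of each class and their hosts, and for fixed lists of snoRNA particle proteins, host genes and RNAs without a poly(A) tail. A host gene of the list is not reported here. Members and lists were chosen with earlier results of these data known. Within groups the libraries differed beyond sampling noise (chi-square per gene 7.56 to 39.8 over 30 pairs).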

Additional observations from a re-analysis of the deposited data

Results flagged for a closer look

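Among the 50 groups of 6 values examined, 2 for each tested member, 4 held a library far from the other 5 by Dixon's test, where chance gives about 2.5 (1 in 20). Snhg3 in siNC replicate 5 measured 3.21 CPM, from 98 counts, with the other siNC libraries at 4.09 to 4.58. Snhg5 in siNC replicate 6 measured 18.3 CPM, from 766 counts, with the others at 15.8 to 16.4. Snhg6 in siEgr2 replicate 2 measured 36.6 CPM, from 449 counts, with the others at 24.1 to 27.8, and its log2 fold change without that library was 0.25 (adjusted p = 0.0398 in edgeR's test). Snord32a in siEgr2 replicate 1 measured 1.008 CPM, from 15 counts, with the others at 0.384 to 0.618. The 4 values fall in 4 different libraries.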

How the results depend on the processing

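Calls among members were 0 in each class with TMM, RLE and upper-quartile scaling, library size alone, both other filters, thinning, the replicate block and without 1361 other structural RNA genes. Box C/D snoRNAs called higher became 1 with limma-voom (Snord32a, which passed the filter through siEgr2 libraries). Snhg genes called higher became 1 of 15 with DESeq2 (3.36% of all genes), 1 with limma-voom (2.69%) and 3 with no fold threshold (8.57%), and 0 to 1 when single libraries were left out, 1 being without siNC replicate 5 (Snhg14). At an adjusted p under 0.05 the number of Snhg genes was 0 to 5 over all settings. Same-numbered libraries of the groups correlated at -0.02 to 0.05, which showed no pairing by number. No libraries of known shared culture were at hand for comparison, so these values do not settle it. With the replicate block 0 members and 1124 genes in all were called, and Snora73a turned to -0.15. In that fit 2 Snhg genes (Snhg6 and Snhg8) passed the adjusted p. Library size alone gave 1974 called genes, 87.99% of them lower against 65.9% with TMM, and moved the median of all genes to -0.18; it turned the log2 fold change of Snora73a to -0.18, Snora31 to -0.15, Snora73b to -0.093, Snhg15 to -0.095, Snhg12 to -0.10, Snhg20 to -0.10, Snhg18 to -0.14, Snhg4 to -0.0028, Fbl to -0.029, Nop56 to -0.0023, Snu13 to -0.074, Dkc1 to -0.11 and Nop10 to -0.033. Limma-voom turned Snora73a to -0.15, Snora43 to -0.068, Snora68 to 0.011 and Snhg4 to -0.25. Without the filter Snora73a was -0.055 and Snora31 -0.016, and with all libraries thinned to 8034251 counts Snhg16 was -0.019 and Snhg18 -0.29, while no snoRNA passed the filter. Leaving out 1 library turned Snora73a (-0.47 to 0.18), Snora43 (-0.14 to 0.54), Snora31 (-0.058 to 0.11), Snora73b (-0.074 to 0.25), Snora68 (-0.34 to 0.11), Snhg18 (-0.019 to 0.14) and Snhg4 (-0.33 to 0.39) in at least 1 fit each. None of these turned values passed an adjusted p of 0.05 in either direction, and the cause of the turns was not tested. Without an siNC library 0 box C/D snoRNAs and 4 or 5 box H/ACA snoRNAs passed the filter, and without an siEgr2 library 6 or 7 and 11 or 12 did. The floor of 3 counts is 0.0718 to 0.384 CPM, near the level of the tested snoRNAs.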

Other observations

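Values of exactly 1 in all 12 libraries were not particular to the snoRNAs and scaRNAs. They occurred in 172 genes of the table, 154 of which are outside the symbols described here. By GENCODE M21 type, 78 of the 154 are miRNA genes, 18 further snoRNA genes, 2 processed pseudogenes, 1 an rRNA gene and 1 an snRNA gene, and 54 have symbols with no entry there.

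In most host pairs the host had far more counts than its snoRNA, and Snhg9 was an exception. Snora78, annotated inside Snhg9, held 35 counts over all libraries and Snhg9 held 9; its exons overlap Rps2 on the other strand. These genes were chosen after their values were seen.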
